A study of Mus musculus with 19 samples.

Results

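The genes described here encode the subunits of the mitochondrial respiratory chain and ATP synthase that are carried by the nuclear genome. They were chosen by symbol from the raw count tables of splenic conventional dendritic cells. All symbols starting with Nduf, Sdha, Sdhb, Sdhc, Sdhd, Uqcr, Cyc1, Cox4i, Cox5, Cox6, Cox7, Cox8 or Atp5 were taken, without the Ndufaf assembly factors and Cox6a2, and a count of at least 10 in at least 3 libraries of each table was required. The prefixes took in 97 symbols, 8 were excluded, 7 were below the count requirement, and 82 of 24421 symbols remained. Of these, 36 carry a complex I prefix, 8 a complex II prefix, 9 a complex III prefix, 12 a complex IV prefix and 17 an ATP synthase (complex V) prefix. The label holds for most of them: 75 encode subunits. The others are Cox7a2l, which helps assemble supercomplexes, the complex II assembly factors Sdhaf1, Sdhaf2, Sdhaf3 and Sdhaf4, and Atp5s and Atp5sl, which are named after ATP synthase but are not among its subunits. Ndufa4 was filed under complex I by its prefix, although its protein is now placed with complex IV.

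Complexes I to IV pass electrons from NADH and succinate to oxygen. Complexes I, III and IV pump protons across the inner mitochondrial membrane, which complex II does not, and complex V uses the proton gradient to make ATP. Most subunits are nuclear-encoded and imported, and a few core subunits come from mitochondrial DNA, which were not analysed here. Dendritic cells draw on both oxidative phosphorylation and glycolysis, and XBP1 and IRE1, the targets of the study, are the transcription factor and the sensor of one branch of the unfolded protein response.

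The study sorted type 1 (cDC1) and type 2 (cDC2) conventional dendritic cells from mouse spleen, 5000 to 50000 cells a library, and measured bulk RNA as read counts per gene. Mice were C57BL6, and 3 genotypes were compared within each cell type: WT, an Xbp1-deficient line (Xbp1 KO) and a line deficient in both genes (Xbp1-Ire1 KO). The cDC1 groups have 3 libraries each, and the cDC2 groups have 4 WT, 3 Xbp1 KO and 3 Xbp1-Ire1 KO libraries. The sources used here name neither the driver of the deletion nor the age of the mice. Among the WT libraries, replicates 1 and 2 of each cell type are described by their floxed alleles (fl-fl) and the others as WT only. WT libraries of a cell type differed more across these descriptions than within them. The chi-square per degree of freedom between the counts of 2 libraries was 52.32 to 75.31 across and 13.62 to 24.82 within. It was 9.164 to 37.62 in the KO groups. Each WT group pools both descriptions, so its spread includes this split. The labels do not say that replicates are separate mice, so p-values measure the spread between these libraries, which may be technical. In bulk RNA, fewer cells that express a gene and less RNA per cell cannot be told apart.

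Libraries held 10606864 to 16209469 counts. Levels are given as CPM, the count of a gene relative to the total of its library, scaled between libraries for the members. The sort matched its markers: Xcr1, a cDC1 receptor, was at 813.5 to 1281 CPM in cDC1 and 5.657 to 19.5 CPM in cDC2, and Sirpa, a cDC2 marker, was at 5.31 to 67.96 CPM and 1300 to 1701 CPM. In cDC1, Xbp1 ran from 147.3 to 239.8 CPM (WT), from 92.94 to 117.2 CPM (Xbp1 KO) and from 312.4 to 358.6 CPM (Xbp1-Ire1 KO). The gene that encodes IRE1, Ern1, ran from 23.05 to 29.94 CPM, from 27.77 to 34.31 CPM and from 52.34 to 72.55 CPM in the same order. In cDC2, Xbp1 ran from 70.28 to 153.5 CPM (WT), from 40.79 to 55.67 CPM (Xbp1 KO) and from 55.91 to 76.04 CPM (Xbp1-Ire1 KO), and Ern1 from 20.13 to 30.7 CPM over all libraries. Counts of whole genes do not separate deleted from remaining exons, so these values check the labels little. The cDC1 Xbp1 KO library of replicate 3 held 2223 CPM of 15 pancreatic acinar genes, against 0.7839 to 1.676 CPM in cDC1 WT. Most counts of members called that rest on it are also given without it.

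In WT cells the respiratory chain genes made up more of the counts in cDC1 than in cDC2, at 1.18% to 1.25% against 0.833% to 1.02%. Their summed level, scaled between libraries, was 13990, 12940 and 12190 CPM in the cDC1 WT libraries and 9532, 8342, 8098 and 8558 CPM in the cDC2 WT libraries. Every cDC1 WT library was above every cDC2 WT library. In cDC1 Xbp1 KO the sum was 9764, 9493 and 11480 CPM, below all cDC1 WT libraries. In cDC1 Xbp1-Ire1 KO it was 14010, 11240 and 13960 CPM, which overlapped WT. For cDC2 the sums were 7460, 7060 and 7913 CPM (Xbp1 KO) and 9344, 8110 and 9735 CPM (Xbp1-Ire1 KO). The cDC2 Xbp1 KO libraries lay below all WT and Xbp1-Ire1 KO libraries of cDC2.

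Levels of different genes were compared per kilobase of transcript. ATP synthase genes stood highest, with a median level of 273.0 CPM per kilobase in cDC1 WT, followed by complex IV at 227.4, complex III at 177.9, complex I at 93.04 and complex II at 46.35. The same order held in cDC2 WT, at 185.1, 155.9, 93.23, 68.31 and 35.88 CPM per kilobase. The complex II medians include 4 assembly factors. Its subunits Sdhd, Sdhb, Sdha and Sdhc were at 206.7, 171.3, 125.6 and 43.63 in cDC1 WT and 122.6, 110.6, 130.8 and 36.37 in cDC2 WT. All but Sdhc were above the complex I median, so the last place of complex II rests on the assembly factors. Atp5b, the catalytic beta subunit of ATP synthase, was the highest member in its complex, at a mean of 817.7 CPM per kilobase in cDC1 WT and 476.1 in cDC2 WT. Cox4i1, the common form of a regulatory complex IV subunit, led complex IV at 600.6 and 380.9. Ndufa4 led the complex I prefix at 351.2 and 243.3. In complex III, Uqcrb led in cDC1 WT at 313.6 and Uqcrc1, a core subunit, in cDC2 WT at 160.4. In complex II, the membrane anchor Sdhd led in cDC1 WT at 206.7 and the flavoprotein Sdha in cDC2 WT at 130.8.

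Each complex was then summarised by the mean log2 CPM of its genes, set relative to the mean over all 19 libraries. Over the 82 genes the group means ran from 0.378 ± 0.238 (SD, n = 3) in cDC1 Xbp1-Ire1 KO and 0.352 ± 0.064 (n = 3) in cDC1 WT, through 0.007 ± 0.189 (n = 3) in cDC1 Xbp1 KO, −0.080 ± 0.151 (n = 3) in cDC2 Xbp1-Ire1 KO and −0.182 ± 0.144 (n = 4) in cDC2 WT, to −0.414 ± 0.126 (n = 3) in cDC2 Xbp1 KO. Among neighbours in this order, only cDC1 WT (0.309 to 0.426) and cDC1 Xbp1 KO (−0.134 to 0.221) did not overlap. Complexes I, III, IV and V gave means of 0.348 to 0.433 in cDC1 WT and −0.314 to −0.133 in cDC2 WT, with no overlap between the libraries. Complex II, whose 8 genes include 4 assembly factors, differed less: its libraries ran from 0.087 to 0.277 in cDC1 WT and from −0.101 to 0.151 in cDC2 WT, and overlapped. The spread was largest in cDC1 Xbp1-Ire1 KO, where replicate 2 was at 0.104 and the other libraries were at 0.497 and 0.534.

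**Figure D1:**
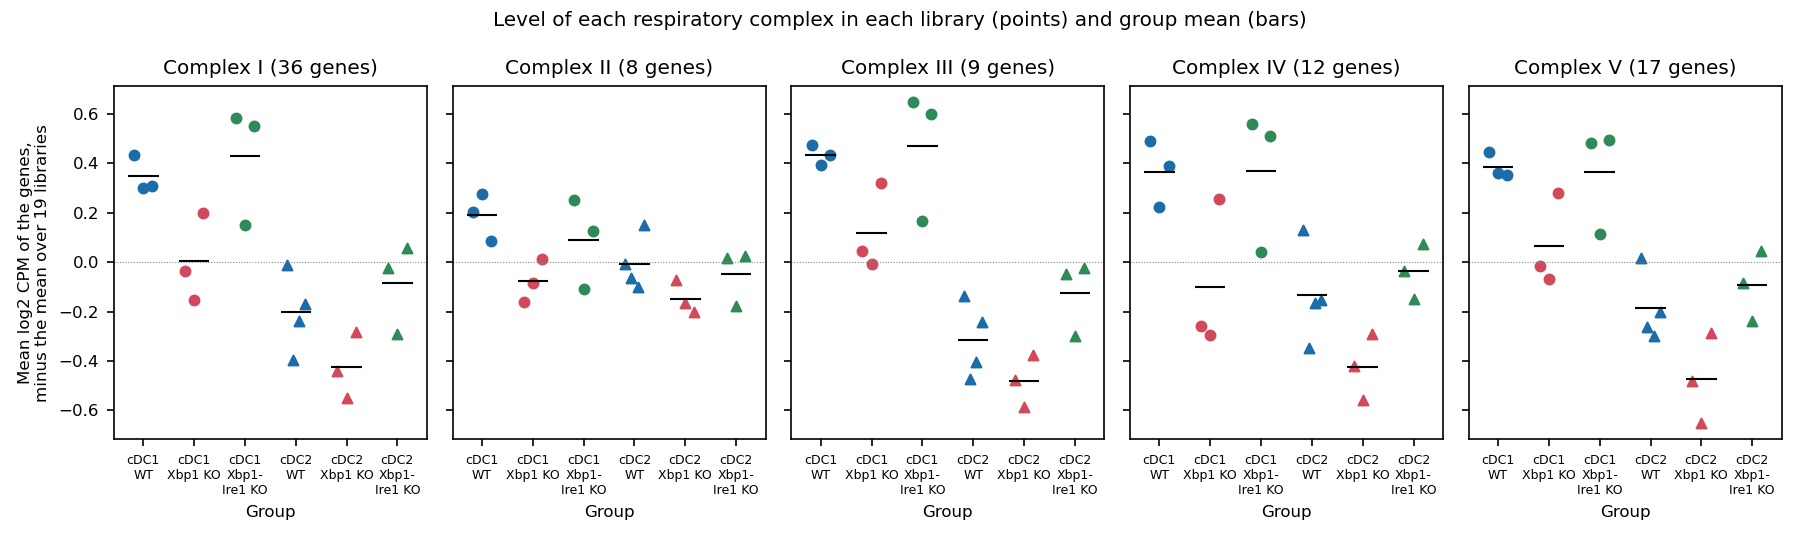
Mean log2 CPM of the genes of each respiratory complex, minus the mean over 19 libraries (y axis, log2 units), for each library (points, circles cDC1, triangles cDC2) in the 6 groups (x axis), with the group mean as a bar. Complexes I, III, IV and V share 1 pattern, with cDC1 WT above cDC2 WT and the mean of Xbp1 KO lowest in each cell type, and complex II varies least.

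In cDC1, the loss of Xbp1 went with lower respiratory chain RNA. Of the 82 genes, 14 were lower in Xbp1 KO than in WT and 0 were higher at an adjusted p under 0.05 (edgeR quasi-likelihood test, Benjamini-Hochberg over all 11353 genes tested), where 6.91% of all genes were lower and 4.28% higher. At an unadjusted p under 0.05 there were 38, and DESeq2 called 22 lower and 0 higher. The median log2 fold change was −0.36, against −0.02 over all genes tested, and 75 of the 82 genes were below 0. The genes called came from every complex: 4 of 36 in complex I, 2 of 8 in complex II, 2 of 9 in complex III, 2 of 12 in complex IV and 4 of 17 in complex V. All members of complexes III and IV lay below 0. The summed level of 6 monocyte markers also moved with genotype in cDC1, at 85.09 to 99.47 CPM in WT, 120.2 to 197.8 CPM in Xbp1 KO and 124.6 to 275.4 CPM in Xbp1-Ire1 KO, with 1 marker at 0 throughout the last group. That of 7 red pulp macrophage markers overlapped, at 179.1 to 282.3, 148.2 to 603.5 and 136.6 to 503.7 CPM with no marker at 0. Their part in the results was not tested.

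The largest called difference was that of Ndufa9, an accessory subunit of the complex I membrane-matrix junction. It lies on chromosome 6 (GRCm38 chr6:126821721-126849136, minus strand). Its promoter is shown because it holds a match to the core motif of YY1, a transcription factor linked to mitochondrial genes (AAGATGGC, in capitals). It is printed beside those of Ndufb8, a complex I subunit with the same match, and Sdhb, the iron-sulfur subunit of complex II, whose capitals mark a match to the core of NRF1, a main activator of respiratory chain genes (GCGCATGC, on the other strand). Each covers 300 bases around the annotated start (RefSeq, GRCm38.p6), at chr6:126849095-126849394 (minus strand), chr19:44555393-44555692 (minus) and chr4:140961021-140961320 (plus).
Ndufa9 promoter: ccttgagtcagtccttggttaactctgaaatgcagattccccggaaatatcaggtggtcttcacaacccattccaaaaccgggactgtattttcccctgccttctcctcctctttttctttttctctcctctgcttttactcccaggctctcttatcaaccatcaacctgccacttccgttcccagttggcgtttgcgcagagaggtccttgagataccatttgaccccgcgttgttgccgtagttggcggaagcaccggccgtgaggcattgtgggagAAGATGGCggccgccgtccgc
Ndufb8 promoter: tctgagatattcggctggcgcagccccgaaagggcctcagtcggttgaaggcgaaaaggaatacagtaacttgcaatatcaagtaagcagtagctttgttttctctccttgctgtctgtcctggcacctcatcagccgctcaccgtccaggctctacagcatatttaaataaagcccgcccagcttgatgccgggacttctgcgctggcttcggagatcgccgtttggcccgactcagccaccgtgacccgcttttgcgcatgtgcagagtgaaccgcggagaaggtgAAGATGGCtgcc
Sdhb promoter: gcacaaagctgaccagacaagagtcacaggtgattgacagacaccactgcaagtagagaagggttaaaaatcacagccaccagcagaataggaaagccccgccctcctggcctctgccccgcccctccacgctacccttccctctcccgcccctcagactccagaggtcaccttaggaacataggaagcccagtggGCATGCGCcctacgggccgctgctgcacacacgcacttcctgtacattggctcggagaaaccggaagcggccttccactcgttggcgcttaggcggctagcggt
On both strands, the YY1 core was found for 11 of the 70 members with a promoter entry (15.7%) and for 5.45% of 9781 tested genes. A gene counted as matched if any of its promoter entries held the core. The NRF1 core was found for 10 (14.3%) against 6.08%, and the core of ETS factors (CCGGAAGT) for 5 (7.14%) against 9.39%. Over all 27025 genes with such a promoter the shares were 3.19%, 3.05% and 4.31%. The promoter entries of Atp5d held no match to any of the 3 cores. A match is a run of letters, not a measured binding site.

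The WT libraries of cDC1 had Ndufa9 levels of 202.9, 177.6 and 148.9 CPM, the Xbp1 KO libraries 81.3, 65.71 and 80.65 CPM, and the Xbp1-Ire1 KO libraries 200.6, 169.9 and 217.5 CPM. All 3 Xbp1 KO libraries lay below every library of both other genotypes, which overlapped each other. The log2 fold change of Xbp1 KO against WT was −1.23 ± 0.15 (SE; edgeR adjusted p = 0.000157), a level 57.3% lower. Its cDC2 levels were 120, 113.3, 92.55 and 116.1 CPM (WT), 88.86, 86.58 and 95.28 CPM (Xbp1 KO) and 124.5, 79.22 and 133.5 CPM (Xbp1-Ire1 KO). Those groups overlapped, and the difference of cDC2 Xbp1 KO from WT was −0.31 ± 0.17 (edgeR adjusted p = 0.534).

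Atp5d, the delta subunit of the ATP synthase stalk, followed (chr10:80138632-80145818, plus strand). Its cDC1 levels were 247.4, 227.8 and 163.5 CPM (WT), 98.95, 93.21 and 114.9 CPM (Xbp1 KO) and 170.9, 169.9 and 182.3 CPM (Xbp1-Ire1 KO). The Xbp1 KO libraries were below all others of cDC1. The log2 fold change against WT was −1.07 ± 0.15 (edgeR adjusted p = 0.000624), 52.3% lower. Its cDC2 levels were 161.7, 161.4, 141.6 and 135.3 CPM (WT), 128.3, 119.9 and 124.2 CPM (Xbp1 KO) and 143.3, 123.7 and 133.9 CPM (Xbp1-Ire1 KO). The cDC2 Xbp1 KO libraries lay just below those of WT, by −0.29 ± 0.12 in log2 fold change, which did not pass the test (edgeR adjusted p = 0.496). The gene overlaps Cbarp on the other strand, and whether the authors counted by strand is not given in the sources used here.

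**Figure D2:**
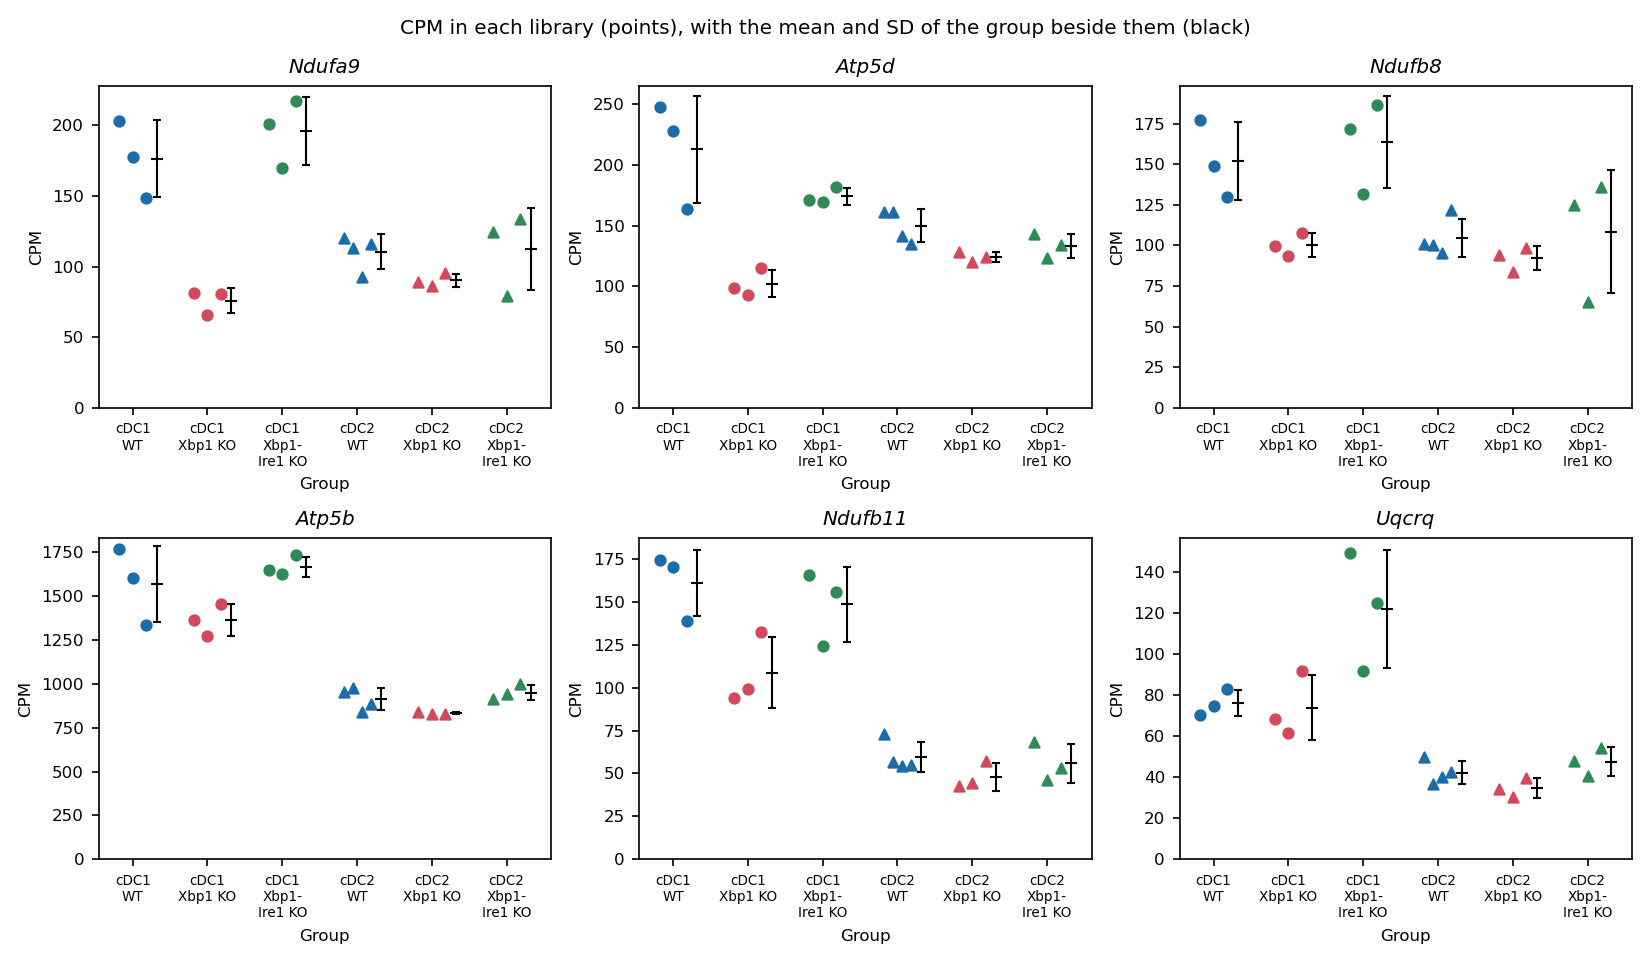
CPM (y axis, from 0) of 6 genes in each library (points, circles cDC1, triangles cDC2) of the 6 groups (x axis), with the group mean and SD in black beside the points. Ndufa9, Atp5d and Ndufb8 are lower in cDC1 Xbp1 KO than in the other cDC1 groups, Atp5b and Ndufb11 are higher in every cDC1 library than in any cDC2 library, and Uqcrq is highest in cDC1 Xbp1-Ire1 KO.

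Other genes called lower in cDC1 Xbp1 KO fell by less than Atp5d. Atp5g1 and Atp5g3, which encode the same membrane ring subunit of ATP synthase, changed by −0.75 ± 0.18 and −0.65 ± 0.14 (edgeR adjusted p = 0.0167 and 0.00976). The third gene of that subunit, Atp5g2, was at −0.50 ± 0.17 and did not pass (edgeR adjusted p = 0.0736). Cyc1, the cytochrome c1 of complex III, changed by −0.66 ± 0.18 (edgeR adjusted p = 0.0312). It was the only called gene whose groups overlapped, with WT replicate 3 at 99.47 CPM and Xbp1 KO replicate 3 at 104.0 CPM. Cox7a2, Ndufb8, Ndufb11, Uqcrfs1 (the Rieske iron-sulfur protein of complex III), Cox7a2l, Sdhd, Atp5a1 (the alpha subunit of ATP synthase) and Sdhb had log2 fold changes of −0.63 to −0.42. Sdhb, for example, had 212.7, 202.2 and 172.1 CPM in the WT libraries against 144.3, 136.7 and 159.6 CPM in those of Xbp1 KO. Atp5b, the highest gene of the group, was not called, at −0.21 ± 0.12 (edgeR adjusted p = 0.276).

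The number of genes called depended on single libraries, while the calls of Ndufa9 and Atp5d held without any 1 of them. Without cDC1 WT replicate 1, WT replicate 2, Xbp1 KO replicate 1 or Xbp1 KO replicate 2 the count was 3, 4, 3 and 3 genes, and without WT replicate 3 it was 27. Against the fl-fl WT libraries alone 27 genes were lower, and against the only cDC1 library described as WT 2 were. Without Xbp1 KO replicate 3, the library with acinar RNA, 18 genes were lower at a median of −0.45. Ndufa9 and Atp5d passed the test under all 13 alternatives, with log2 fold changes of −1.33 to −0.97 and −1.21 to −0.67.

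Respiratory chain transcripts are short, and short transcripts as a class moved the same way. The members have a median transcript length of 755 bases, against 2688 bases over all genes tested with a length, and 50 of 81 are shorter than 1000 bases. In cDC1 Xbp1 KO against WT, the 822 genes shorter than 1000 bases had a median log2 fold change of −0.22, the 50 short members −0.35 and the 31 longer members −0.37. After the trend with length was removed, 7 members were called lower and the median was −0.17. Ndufa9, Atp5d, Atp5g1 and Atp5g3 were still among the 7. Before removal 6.91% of all genes were lower, and the share of all genes after it is not given here. The part of transcript length in the smaller differences was not tested further.

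**Figure D3:**
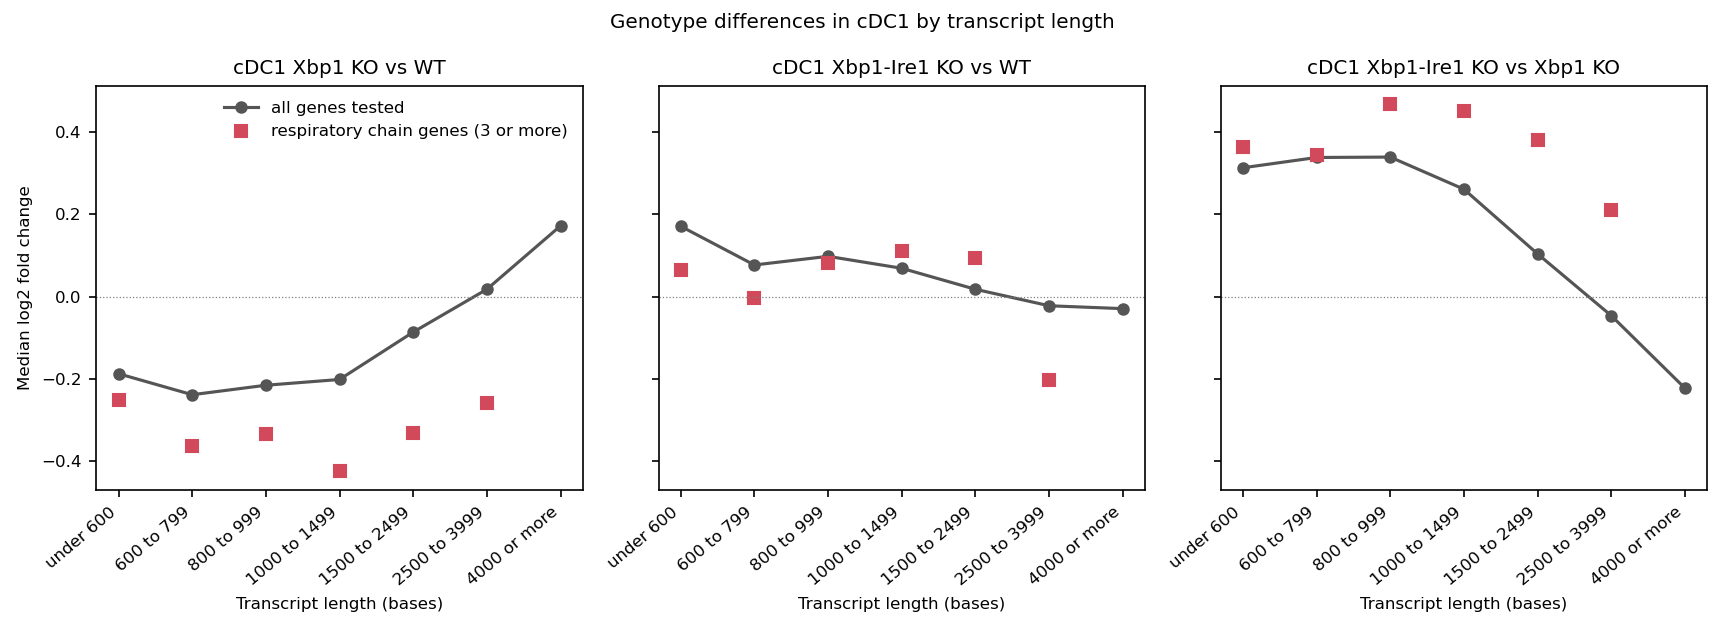
Median log2 fold change (y axis) by transcript length in bases (x axis) for all genes tested (grey line) and for respiratory chain genes in bins with at least 3 of them (red squares), in the 3 genotype comparisons of cDC1. In Xbp1 KO against WT the grey line rises from −0.19 in the shortest bin to 0.17 in the longest, and the squares lie below it in every bin shown.

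In cells that lacked both genes, respiratory chain levels overlapped those of WT. In cDC1 Xbp1-Ire1 KO against WT, 1 member was higher and 0 were lower, where 3.04% of all genes were higher and 4.71% lower (edgeR, adjusted p under 0.05). At an unadjusted p under 0.05 there were 8, and DESeq2 called 3 higher and 1 lower. The median log2 fold change was 0.06, and −0.04 without Xbp1-Ire1 KO replicate 1, so its sign rests on single libraries. After the trend with length was removed it was −0.07. The gene called was Uqcrq, a small subunit of complex III, at 149.2, 91.85 and 125.2 CPM against 70.5, 74.8 and 83.11 CPM in WT. All 3 libraries were above WT, by a log2 fold change of 0.69 ± 0.19 (edgeR adjusted p = 0.0395). That call was lost without WT replicate 1, WT replicate 2, Xbp1-Ire1 KO replicate 1 or Xbp1-Ire1 KO replicate 3 (edgeR adjusted p = 0.113 to 0.194). Over the 6 libraries left out in turn, 0 to 5 members were called. Ndufa9 was at 0.16 ± 0.15 and Atp5d at −0.28 ± 0.15 in this comparison, and neither passed the test.

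Set directly against Xbp1 KO, whose libraries also entered the comparison of Xbp1 KO with WT, cDC1 Xbp1-Ire1 KO had 18 members higher and 0 lower, where 7.13% of all genes were higher and 5.52% lower (edgeR, adjusted p under 0.05). DESeq2 called 26 higher and 1 lower. The median was 0.37, against 0.02 over all genes, and 78 of 82 members were above 0. Complex I held 10 of the 18, among them Ndufa9, Ndufb8, Ndufs4, Ndufa11, Ndufb9 and Ndufs8. Complex II held Sdhb and Sdhd, complex III Uqcrq and Cyc1, complex IV Cox7a2l, Cox7a2 and Cox5b, and complex V Atp5d. Ndufa9 rose by 1.38 ± 0.15 on the log2 scale (edgeR adjusted p = 4.67e-05), Atp5d by 0.78 ± 0.15 (0.0052), Cox7a2l by 0.75 ± 0.15 (0.00571), Uqcrq by 0.74 ± 0.19 (0.0213) and Ndufb8 by 0.72 ± 0.16 (0.00935). Ndufb8 had 99.71, 93.48 and 107.8 CPM in the Xbp1 KO libraries and 171.9, 131.9 and 186.7 CPM in those of Xbp1-Ire1 KO, with no overlap.

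This count also turned on single libraries. It was 4 without Xbp1 KO replicate 1, Xbp1 KO replicate 2 or Xbp1-Ire1 KO replicate 3, 6 without Xbp1-Ire1 KO replicate 1 and 33 without Xbp1-Ire1 KO replicate 2. Without Xbp1 KO replicate 3 it was 22. Ndufa9, Atp5d and Cox7a2l passed under all 11 alternatives. Xbp1-Ire1 KO replicate 2 stood apart in other short transcripts too: its mean log2 CPM of cytosolic ribosomal protein genes was 7.706, against 8.306 and 8.187 in the other libraries of its group. In this comparison the 822 genes shorter than 1000 bases had a median log2 fold change of 0.34. The 50 short members were at 0.36, the 31 longer members at 0.42 and 84 cytosolic ribosomal protein genes at 0.39. After the trend with transcript length was removed, 5 members were higher and 1 lower. Before removal 7.13% of all genes were higher and 5.52% lower, and the shares after it are not given here. The part of length in the rest was not tested further.

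In cDC2 no member passed the test in any genotype comparison. For Xbp1 KO against WT, 0 were higher and 0 lower (edgeR, adjusted p under 0.05), where 0.0687% of all genes were higher and 0.0343% lower. At an unadjusted p under 0.05 there were 14, and DESeq2 called 0. The median log2 fold change was −0.24, against −0.02 over all genes, and 81 of 82 members were below 0. Between Xbp1-Ire1 KO and WT, 0 members were called either way, where 0.0258% of genes were higher and 0% lower. The median was 0.08, with 3 members at an unadjusted p under 0.05 and 0 called by DESeq2. For Xbp1-Ire1 KO against Xbp1 KO, 0 members were called, where 0.0258% of genes were higher and 0.00859% lower. The median was 0.34, with 75 members above 0, 36 at an unadjusted p under 0.05 and 0 called by DESeq2. Cox7a2, a complex IV subunit, had 41.09, 44.16 and 50.56 CPM in the Xbp1 KO libraries of cDC2 and 74.35, 64.14 and 91.07 CPM in those of Xbp1-Ire1 KO, without overlap, at a log2 fold change of 0.76 ± 0.20 (edgeR adjusted p = 0.474).

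**Figure D4:**
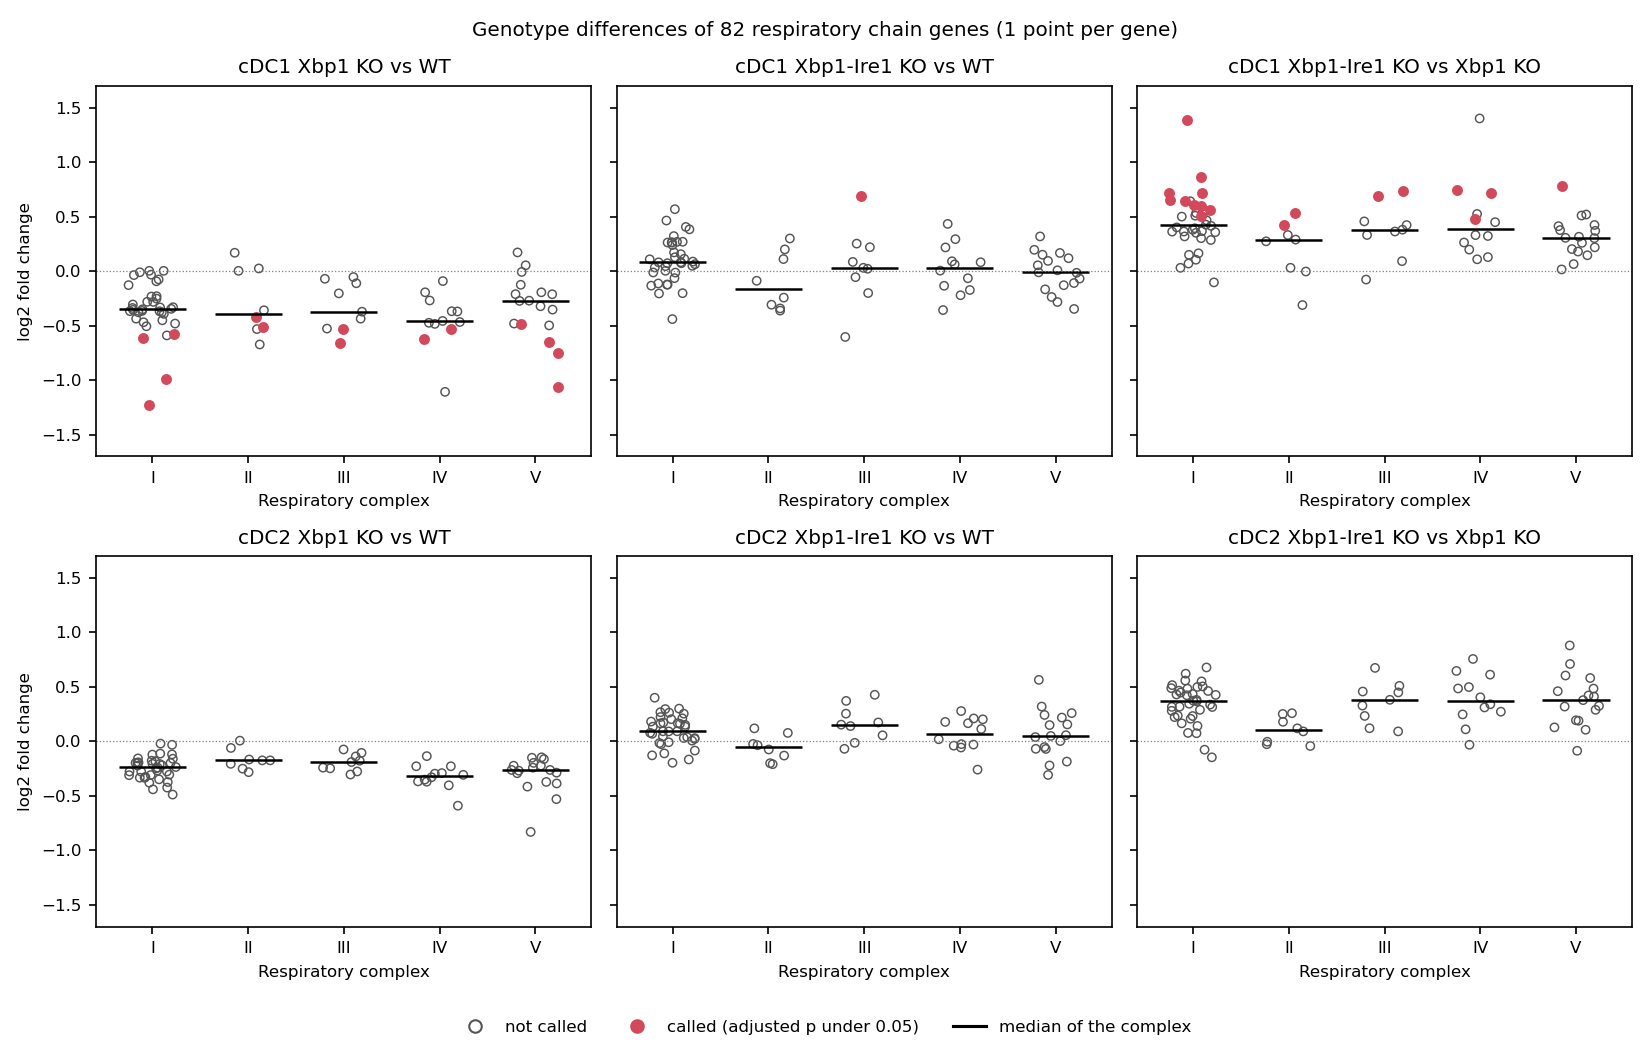
log2 fold change (y axis) of each of the 82 genes (1 point per gene, filled where the adjusted p is under 0.05) by respiratory complex (x axis) in the 6 genotype comparisons, with the median of each complex as a bar. In both cell types the points lie mostly below 0 for Xbp1 KO against WT and above 0 for Xbp1-Ire1 KO against Xbp1 KO, and called genes are seen in cDC1.

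The comparisons of cDC1 and those of cDC2 share no library, so their directions can be set side by side. For Xbp1 KO against WT, 75 of 82 members were below 0 in both cell types, and 3890 of the 10967 genes tested in both were. For Xbp1-Ire1 KO against Xbp1 KO, 72 members and 3546 of all genes were above 0 in both. Genes shorter than 1000 bases had medians of −0.22 and 0.34 in these comparisons in cDC1, and of −0.18 and 0.22 in cDC2. Of 84 cytosolic ribosomal protein genes, 79 were below 0 in the first comparison in cDC2, but 43 in cDC1. In the second, 80 were above 0 in cDC2 and 81 in cDC1. The part of length in the shared direction was not tested. The sizes followed each other little: across the 82 genes, Pearson's r between the cell types was 0.07 and −0.12. Over all genes tested in both it was 0.35 and 0.26, but the members spanned a narrower range of changes, which limits r. For Xbp1-Ire1 KO against WT it was 0.18 over the members and 0.21 over all genes. These values are a description, since genes of 1 library share its depth and composition.

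The difference between the cell types was tested directly. For the effect of Xbp1 KO against WT, 3 members had a more negative change in cDC1 than in cDC2 and 0 a more positive one, where 1.84% and 0.328% of all genes did (edgeR interaction, adjusted p under 0.05; 5 members at an unadjusted p under 0.05, and 3 by DESeq2). Among them were Ndufa9 at −0.925 ± 0.23 and Atp5d at −0.78 ± 0.19 (edgeR adjusted p = 0.0393 and 0.0269). For Xbp1-Ire1 KO against Xbp1 KO, 2 members had a larger rise in cDC1 and 0 a smaller one, where 1.82% and 0.32% of genes did. Among the 2 was Ndufa9 at 1.05 ± 0.24 (edgeR adjusted p = 0.0216). The counts of 3 and 2 members are small, and that of 2 was near the share of all genes. The effect of Xbp1-Ire1 KO against WT differed for 0 members, where 0.755% of genes were more positive and 1.48% more negative in cDC1, with 4 members at an unadjusted p under 0.05 and 0 by DESeq2. The adjusted p-values were close to the threshold. With the replicate number as a block, 1 member, Ndufa9, differed for Xbp1 KO against WT, and Atp5d did not pass. For Xbp1 KO against WT the count was 0 without cDC1 WT replicate 1 or 2, cDC1 Xbp1 KO replicate 1 or 2, cDC2 WT replicate 3 or 4 or any cDC2 Xbp1 KO library, 1 without cDC1 Xbp1 KO replicate 3, and at most 4 in all. The count for Xbp1-Ire1 KO against Xbp1 KO was 0 without cDC1 Xbp1 KO replicate 2 or cDC1 Xbp1-Ire1 KO replicate 3, and 1 without cDC1 Xbp1-Ire1 KO replicate 1, cDC2 Xbp1 KO replicate 1 or cDC2 Xbp1-Ire1 KO replicates 2 or 3.

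IRE1 is an endonuclease that cuts the Xbp1 transcript in a pair of stem-loops and can cut other transcripts with a like loop, so the spliced transcripts of the members were searched for them, on the sense strand. The search took a loop of 7 bases, CNGCAGN, closed by 4 base pairs. A G opposite a U (t in the letters below) was counted as a pair, and the stem of Atp5d holds such pairs. The search was chosen after the values were seen. The known pair in Xbp1 shows what the search returns, followed by the match in Atp5d, with the loop in capitals.
Xbp1, 5′ loop: ctgctgagtCCGCAGCactcagact
Xbp1, 3′ loop: tgtgcacctCTGCAGCaggtgcagg
Atp5d: accaggggtCAGCAGTgctccagtt
The Xbp1 matches lie in its coding sequence (GRCm38 chr11:5524267-5524291 and chr11:5524293-5524317, plus strand). The Atp5d match lies in the last untranslated part (chr10:80145627-80145651, plus strand). Ndufa9 held no match in its transcript. Of the 81 member transcripts, 5 held a match (6.17%), against 14.2% of 11334 transcripts of genes tested. Atp5d, which was called lower in cDC1 Xbp1 KO, is 1 of the 5. Atp5c1, Ndufa6 and Uqcrq also held a match, and none of them was called lower there. Per 10 kilobases of transcript the frequencies were 0.491 and 0.434. A match of letters and pairs does not show that a transcript is cut.

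The comparison of the cell types within a genotype gave more calls than any genotype comparison. In WT, 62 of 82 members were higher in cDC1 and 2 lower, where 20% of all 12185 genes tested were higher and 20.7% lower (edgeR, adjusted p under 0.05). In Xbp1 KO 48 were higher and 4 lower, where 18.4% and 20.8% of genes were. In Xbp1-Ire1 KO 48 were higher and 3 lower, where 20.5% and 22.1% of genes were. The medians were 0.57, 0.51 and 0.52 on the log2 scale, against −0.04, −0.03 and −0.04 over all genes. Without Xbp1 KO replicate 3 of cDC1, 31 members were higher and 4 lower in the Xbp1 KO comparison, at a median of 0.37.

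By complex, in WT 26 of 36 members of complex I were higher in cDC1, 8 of 9 of complex III, 11 of 12 of complex IV and 15 of 17 of complex V, and 2 of 8 of complex II. The median log2 fold change was highest for complex III (0.80) and lowest for complex II (0.22), where the subunits Sdha, Sdhb, Sdhc and Sdhd were at −0.06, 0.63, 0.26 and 0.75 and the other 4 genes are assembly factors. The 3 comparisons share no library. Higher levels in cDC1 were called in all 3 for 37 members (45.1%), against 12.1% of all genes tested: 16 of complex I, 2 of complex II, 6 of complex III, 6 of complex IV and 7 of complex V. This count was not taken without cDC1 Xbp1 KO replicate 3, the library with acinar RNA. Without that library fewer than 37 members were higher in the Xbp1 KO comparison alone, so the count in all 3 would be smaller. Lower levels were called in all 3 for 2 members, Atp5sl and Sdhaf1 (2.44%, against 13% of all genes), neither of which is a subunit. The Atp5sl call was lost in 1 of 11 alternatives in Xbp1 KO and in 3 of 11 in Xbp1-Ire1 KO, and that of Sdhaf1 in 6 of 15 in WT and in 2 of 12 in Xbp1-Ire1 KO, mostly without single libraries. No comparison called 12 members: Ndufa8, Ndufa11, Ndufb3, Ndufb4, Ndufb10, Ndufs1, Ndufs7, Sdhc, Sdhaf2, Sdhaf3, Sdhaf4 and Uqcrh.

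Ndufb11, an X-linked accessory subunit of complex I, differed most in WT. It was at 174, 170.2 and 138.9 CPM in cDC1 WT and 72.85, 56.75, 54.11 and 54.7 CPM in cDC2 WT, at a log2 fold change of 1.43 ± 0.17 (edgeR adjusted p = 6.01e-07). Every cDC1 library was above every cDC2 library, also in Xbp1 KO (94.2, 99.2 and 132.2 against 42.47, 44.16 and 57.17 CPM) and in Xbp1-Ire1 KO (165.5, 124 and 155.7 against 68.41, 46.06 and 53.18 CPM), with log2 fold changes of 1.18 ± 0.18 and 1.41 ± 0.18. The gene overlaps Rbm10 on the other strand (chrX:20615326-20617619, minus strand). Ndufa12, another accessory subunit of complex I, was at 68.37, 62.84 and 74.52 CPM in cDC1 WT and 33.04, 24.14, 27.38 and 31.65 CPM in cDC2 WT. All 3 cDC1 libraries lay above the 4 of cDC2, and the log2 fold changes were 1.24 ± 0.18 in WT, 1.35 ± 0.19 in Xbp1 KO and 1.26 ± 0.19 in Xbp1-Ire1 KO.

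Ndufs4, a complex I subunit whose loss causes mitochondrial disease, was at 90.05, 80.35 and 110.7 CPM in cDC1 WT and 51.19, 30.42, 43.63 and 46.51 CPM in cDC2 WT, at 1.13 ± 0.18 (edgeR adjusted p = 3.23e-05). Atp5g3 was at 347.5, 317 and 270.3 CPM in cDC1 WT and 172.6, 139.4, 126 and 138.9 CPM in cDC2 WT, at 1.11 ± 0.13 (edgeR adjusted p = 1.08e-06). Uqcrb, a subunit near the quinone site of complex III, was at 158.8, 141.8 and 202.8 CPM in cDC1 WT and varied more in cDC2 WT, from 49.41 to 110.8 CPM, at 1.09 ± 0.21 (edgeR adjusted p = 0.000224). In these 3 genes the WT groups did not overlap. In Xbp1 KO, Uqcrb (1.26 ± 0.22), Uqcrq (1.09 ± 0.19) and Atp5s (1.45 ± 0.42) were among the 5 largest, and in Xbp1-Ire1 KO Uqcrq (1.36 ± 0.18), Ndufs4 (1.07 ± 0.19) and Cox7c (1.07 ± 0.26) were. Atp5s was low, at 0.9069 to 9.26 CPM over all libraries. Atp5b, with the most counts, was at 1764, 1602 and 1334 CPM in cDC1 WT and 950.5, 975.2, 836.4 and 887.1 CPM in cDC2 WT, at 0.78 ± 0.10 (edgeR adjusted p = 2.38e-06).

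Few members were higher in cDC2. Atp5sl was at 15.53, 14.69 and 10.04 CPM in cDC1 WT and 30.2, 27.88, 25.49 and 28.89 CPM in cDC2 WT, without overlap, at −1.07 ± 0.21 (edgeR adjusted p = 0.000437). Sdhaf1, which helps insert iron-sulfur clusters into Sdhb, was at 18.69, 18.99 and 27.95 CPM against 28.98, 30.35, 28.29 and 40.82 CPM, at −0.55 (edgeR adjusted p = 0.0361). This call was lost with the replicate number as a block (−0.41, edgeR adjusted p = 0.144), after removal of the length trend (−0.41), with the libraries described as WT alone (−0.32, edgeR adjusted p = 0.506), and without cDC1 WT replicate 1, cDC1 WT replicate 2 or cDC2 WT replicate 4 (−0.46 to −0.43). Among genes of subunits, Sdha was lower in cDC1 in Xbp1-Ire1 KO, at 299.2, 296.2 and 283.5 CPM against 344.1, 382.6 and 397.1 CPM (−0.36 ± 0.11, edgeR adjusted p = 0.00969). It did not pass after removal of the length trend (−0.17, edgeR adjusted p = 0.201) or without cDC2 Xbp1-Ire1 KO replicate 3. In WT it did not differ beyond the spread of the libraries, at 377.3, 387.7 and 327.4 CPM against 362.1 to 417.7 CPM. Cox6b2 was called lower in cDC1 Xbp1 KO (−2.15 ± 0.70, edgeR adjusted p = 0.019) from counts of 2, 1 and 16 against 44, 25 and 31. That call was lost without cDC1 Xbp1 KO replicate 1, cDC1 Xbp1 KO replicate 2 or cDC2 Xbp1 KO replicate 1 (edgeR adjusted p up to 0.0872), and the value ran from −4.13 to −1.66 over the alternatives.

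**Figure D5:**
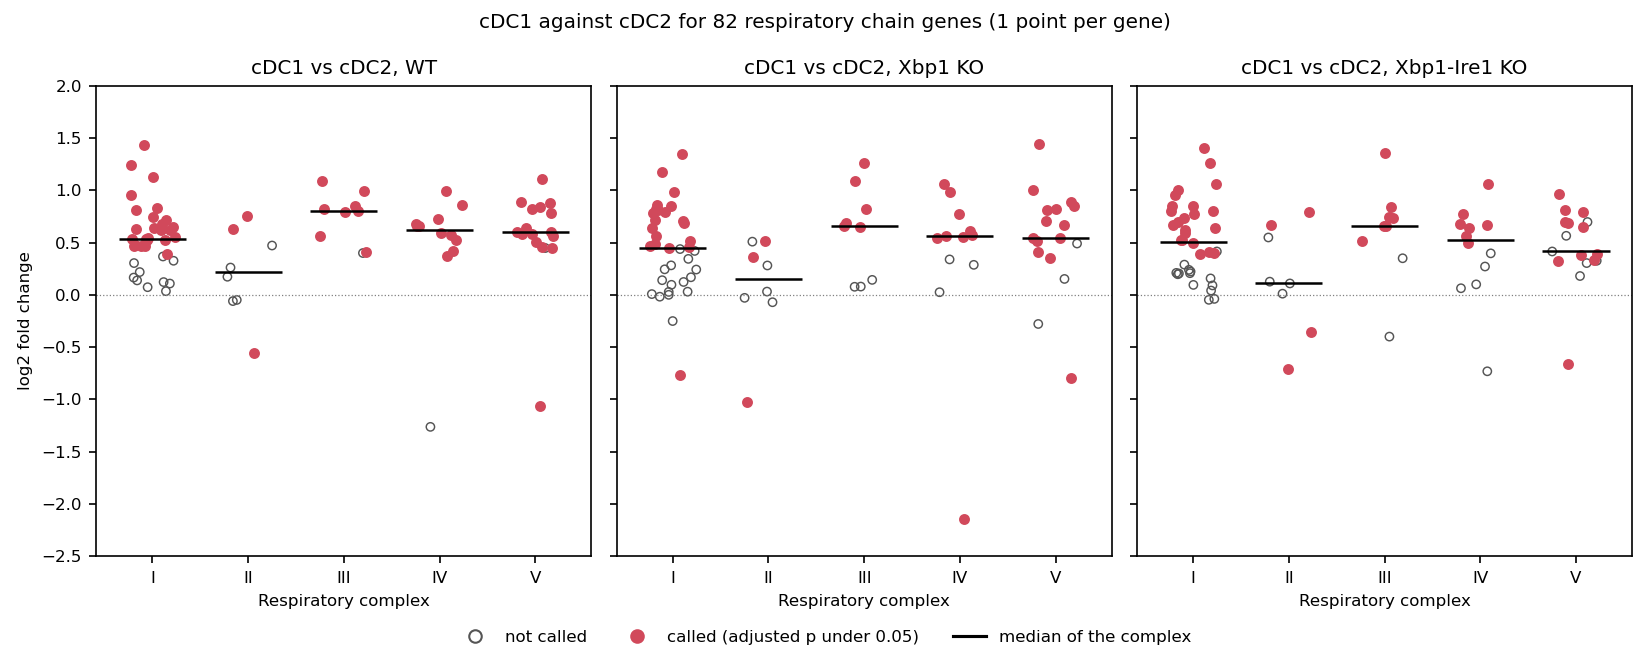
log2 fold change of cDC1 against cDC2 (y axis) for each of the 82 genes (points, filled where the adjusted p is under 0.05) by respiratory complex (x axis) in WT, Xbp1 KO and Xbp1-Ire1 KO, with the median of each complex as a bar. In WT 62 genes are called higher in cDC1, and the median of complex II lies closest to 0 in all 3 genotypes.

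Short transcripts as a class were also higher in cDC1. In WT the 868 genes shorter than 1000 bases had a median log2 fold change of 0.39, the 50 short members 0.59 and the 31 longer members 0.48. After the trend with length was removed, 50 members were higher and 1 lower in WT, 45 and 3 in Xbp1 KO, and 36 and 2 in Xbp1-Ire1 KO. The part of length in the remaining difference was not tested further.

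Several subunits have versions from more than 1 gene, and the ubiquitous version was the one measured. Cox4i1 was at 421.2 to 484.6 CPM in cDC1 WT, and Cox4i2, a version known from lung, had at most 4 counts in any library. Cox6b1 was at 125.4 to 150.7 CPM in cDC1 WT and Cox6b2, known from testis, at 0.6253 to 1.707 CPM. Cox7a2 was at 97.23 to 105.2 CPM, and Cox7a1, the muscle version, had at most 14 counts. Cox8a was at 177.7 to 245 CPM, and Cox8b, Cox8c and Cox7b2 had 0 counts in the 19 libraries, which allows a level of up to 0.0124 CPM over all of them, for counting error alone (3 counts of the summed total). Ndufa4l2 had at most 2 counts. Ndufs5, a subunit of complex I in most tissues, had at most 17 counts and was below the count requirement, and how the authors counted reads it may share with copies of the gene is not given in the sources used here.

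Cox6a is the exception. Cox6a1, the ubiquitous version, had cDC1 levels of 308, 258.6 and 214.4 CPM (WT), 176.7, 176.4 and 219.8 CPM (Xbp1 KO) and 252.7, 213.8 and 242.7 CPM (Xbp1-Ire1 KO). Cox6a2, the heart and muscle version, which is outside the 82 genes, had 0.3414, 0.3126 and 0.648 CPM (WT), 5.431, 5.9 and 10.71 CPM (Xbp1 KO) and 114.1, 72.36 and 68.78 CPM (Xbp1-Ire1 KO). The 3 genotypes did not overlap, and the WT libraries held 4, 4 and 8 counts. Its cDC2 levels ran from 0.08248 to 0.3256 CPM (WT), from 5.372 to 6.963 CPM (Xbp1 KO) and from 6.995 to 9.926 CPM (Xbp1-Ire1 KO). It passed the test in cDC1 Xbp1 KO, cDC1 Xbp1-Ire1 KO, cDC2 Xbp1 KO and cDC2 Xbp1-Ire1 KO against WT (edgeR adjusted p = 3.75e-05, 4.6e-07, 4.85e-05 and 2.89e-05). The gene overlaps Itgad on the other strand, so reads of both may be counted together if counting ignored strand.

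Genes that work with the respiratory chain were counted by list. In cDC1 Xbp1 KO against WT, where 4.28% of all genes were higher and 6.91% lower, 0 of 77 mitochondrial ribosomal protein genes were higher and 4 lower (Mrpl28, Mrpl18, Mrpl36 and Mrps36, median of the list −0.27). Of 25 genes of mitochondrial protein import, 0 were higher and 3 lower (Timm17b, Timm22 and Tomm22, median −0.29). Of 43 assembly factors, 0 were higher and 1, Cmc2, lower (median −0.17). Of 19 genes of the tricarboxylic acid cycle, Dld was higher, at 0.47, and Fh1 lower, at −0.44 (median −0.08). Of 84 cytosolic ribosomal protein genes, 1 was higher and 1 lower (median −0.02). Among 8 carriers and regulators outside the prefixes, Ucp2, an inner membrane carrier, fell by 1.22 on the log2 scale (edgeR adjusted p = 5.59e-05), Higd2a, a complex IV assembly protein, was at −0.59 (0.0321), and Cox6a2 was higher.

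Targets of the integrated stress response, listed together with mitochondrial chaperones and proteases, went the other way: 10 of 18 were higher in cDC1 Xbp1 KO than in WT and 0 lower (median 0.76). The list does not tell a mitochondrial source of stress from another, and the source was not tested. Asns, asparagine synthetase, rose by 3.02 on the log2 scale, Chac1 by 2.46, Phgdh, the first enzyme of serine synthesis, by 1.69 and Mthfd2, a mitochondrial folate enzyme, by 1.05. Of 19 regulators of mitochondrial gene expression, the stress factors Atf4 (1.40), Atf5 (2.51) and Ddit3 (2.06) were higher and Esrra, a nuclear receptor that drives respiratory chain genes, was lower (−0.86, edgeR adjusted p = 0.0164). In cDC1 Xbp1-Ire1 KO against WT, 14 of the 18 stress response targets were higher and 0 lower (median 1.97), where 3.04% of all genes were higher and 4.71% lower. In cDC2, 0 of the 16 targets tested were called in any genotype comparison (edgeR, medians 0.06 to 0.10, with 1 to 3 at an unadjusted p under 0.05). Set against Xbp1 KO, cDC1 Xbp1-Ire1 KO had 19 of 77 mitochondrial ribosomal, 9 of 25 import, 3 of 43 assembly and 13 of 84 cytosolic ribosomal genes higher, and 0 of each lower, where 7.13% of all genes were higher and 5.52% lower. Of the stress response targets, 12 of 18 were higher there and 0 lower (median 1.18), the same direction as the respiratory chain members. The share of assembly factors was near that of all genes.

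In WT, cDC1 was above cDC2 for 40 of 77 mitochondrial ribosomal genes, 60 of 85 cytosolic ribosomal genes and 14 of 25 import genes, with 0 lower in each list, where 20% of all genes were higher and 20.7% lower. Of 43 assembly factors 9 were higher, near the share of all genes, and 2 lower (median 0.23). The tricarboxylic acid cycle was split, with 5 of 19 higher and 4 lower (median −0.06), among them Mdh2 at −1.86. Of the 8 carriers and regulators 6 were higher, among them Atpif1, the inhibitor of ATP synthase, at 2.17, Ucp2 at 1.31 and Cycs, the cytochrome c that links complexes III and IV, at 1.10.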

How the data were processed

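Bulk RNA of sorted cDC1 and cDC2 was measured in 19 libraries of 6 groups. Per the labels and the submitters' processing notes, reads were handled with FastQC 0.11.4, Trimmomatic 0.35, TopHat2 2.1.0 and SAMtools 0.1.19 on mm10, and limma 3.42.2 is named. Which read counter, annotation and strand setting were used is not given in the sources used here. The deposited raw tables hold counts for 24421 symbols, and these were used for all values. The deposited normalized tables hold the authors' log2 values and were not used in tests.

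Counts were tested with edgeR 4.0.16 in R 4.3.3 (quasi-likelihood F test, TMM scaling). Low genes were removed by filterByExpr (min.count 10, min.total.count 15). Genotypes were compared in 1 fit per cell type, and comparisons of the cell types and interactions came from a fit of all 19 libraries. Calls are genes with a Benjamini-Hochberg adjusted p, over all genes tested, below 0.05. The F statistic gave the standard error of each log2 fold change. CPM values were scaled by TMM over the 19 libraries, and a prior count of 2 was used for mean log2 CPM. Transcript lengths are medians over the basic protein-coding transcripts of GENCODE (GRCm38), and promoters are from RefSeq (GRCm38.p6). The tests were tried on simulated counts. Depth limits the precision of genes with few counts, and intervals for counting error do not cover the spread between libraries.

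The 82 genes and the other gene lists were chosen with earlier results of these data known. Genes named with values were, by rule, up to 6 called members per direction in each genotype comparison, up to 5 in each cell type comparison, called interactions, the highest member per kilobase of each complex, isoform families, prefix symbols that are not subunits, and up to 4 called genes of each other list. Atp5b, Sdhb in cDC1 and Cox7a2 in cDC2 were added after their values were seen. Other settings tried were DESeq2 1.42.0, edgeR with size factors from DESeq2, no filter on low counts, and the replicate block. WT libraries were also taken by their description, and each library was left out in turn. Lastly, a trend of log counts with transcript length was removed, as a spline fitted per library and entered as an offset in edgeR. The length setting was added after the data were seen. Same-numbered libraries deviated together for the 3 WT pairs of cDC1 and cDC2 (correlations of 0.132, 0.258 and 0.202) and not throughout the other groups. WT pairs with different numbers but the same description were at 0.162, 0.049 and 0.271. Those with different descriptions were at −0.312 to −0.105. The WT correlations thus followed the description rather than the number. The block was kept as an alternative and is given where it ends a call. The values of 1 called member are not reported here. Figures were drawn with Python 3.11.15 and matplotlib 3.10.9.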

Additional observations from a re-analysis of the deposited data

Results flagged for a closer look

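In cDC2 WT, 2 of 88 gene and group combinations checked held a library apart from the others by Dixon's 95% criterion for 4 samples, where chance alone would give about 1 in 20. Ndufb11 was at 72.85 CPM in replicate 1 and at 54.11 to 56.75 CPM in the others, a gap of 0.859 of the range. Sdhaf1 was at 40.82 CPM in replicate 4 and at 28.29 to 30.35 CPM in the others, a gap of 0.836 of the range.

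For the genes named here, the effect of genotype differed between the cell types by an interaction test (edgeR, adjusted p under 0.05). Of the 82 members, 3 were more negative in cDC1 for Xbp1 KO against WT, where 1.84% of all genes were. For Xbp1-Ire1 KO against Xbp1 KO 2 were more positive, near the 1.82% of all genes. For Xbp1 KO against WT, the cDC1 log2 fold change minus the cDC2 log2 fold change was −0.925 for Ndufa9 and −0.783 for Atp5d. For Xbp1-Ire1 KO against Xbp1 KO it was 1.051 for Ndufa9. These calls kept their direction under all alternatives run but passed the test in 8 of 20, 9 of 20 and 14 of 17 of them.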

How the results depend on the processing

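No called value of a named gene changed sign under the alternatives run. Medians over the members crossed 0 when 1 library was left out in cDC1 Xbp1-Ire1 KO against WT (−0.04 to 0.14) and in the interactions of Xbp1-Ire1 KO against WT (−0.16 to 0.03) and against Xbp1 KO (−0.06 to 0.18). Of 196 alternative counts of members called, 145 lay within 1.5 times the reported count and 51 did not. The cause of each shift was not tested. In cDC1 Xbp1 KO against WT (14 reported), DESeq2 gave 22, removal of the length trend 7, fl-fl WT libraries alone 27, the library described as WT alone 2, and leaving out 1 library in turn 3 to 27. In cDC1 Xbp1-Ire1 KO against WT (1 reported), DESeq2 gave 4, no filter 3, length removal 6, fl-fl WT libraries alone 5, the library described as WT alone 0, and leaving out 1 library 0 to 5. In cDC1 Xbp1-Ire1 KO against Xbp1 KO (18 reported), length removal gave 6 and leaving out 1 library 4 to 33. In cDC2, Xbp1 KO and Xbp1-Ire1 KO against the fl-fl WT libraries alone gave 1 each, where 0 were reported. Between the cell types in WT (64 reported), WT libraries described as WT alone gave 32, and leaving out 1 library gave 47 to 65, with 35 to 52 in each of the other genotypes. For the interaction of Xbp1 KO against WT (3 reported), WT libraries described as WT alone gave 0 and leaving out 1 library 0 to 4. For that of Xbp1-Ire1 KO against WT (0 reported), length removal gave 1. For that of Xbp1-Ire1 KO against Xbp1 KO (2 reported), DESeq2 gave 4, length removal 1 and leaving out 1 library 0 to 2. Where a group was left with 1 library, it was assumed to vary like the others. With the replicate number as a block, the counts were 17, 2 and 18 in the cDC1 genotype comparisons in the order above, 0 in each of cDC2, 61, 56 and 56 between the cell types, and 1, 0 and 2 for the interactions. Same-numbered libraries of different genotypes had correlations of −0.128 to 0.218 in their deviations, and those of different cell types −0.061 to 0.258, with 6 of 18 and 4 of 9 above 0.1. The 3 WT pairs of cDC1 and cDC2 were all above 0.1, but WT correlations followed the fl-fl or WT description rather than the number. The block therefore rests on a shared number only.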
